A study of Mus musculus with 72 samples.

Results

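Among the 72 brain libraries of the series, 12 came from female mouse pups that received morphine or saline only after birth. They were chosen by their labels: exposure on postnatal days 1 to 14 (PND14), code F for female, and either drug. The 6 morphine pups were injected with 10 mg/kg morphine, an opioid agonist, 2 times a day from the evening of PND1 to the morning of PND14, and the 6 saline pups were injected with saline on the same schedule. All were C57Bl/6 pups (C57Bl/6NTac in the study's methods), and the right hemisphere of each pup was collected 6 h after the last injection, although the submitters' design text names the cortex and a later day. The number that opens each sample ID is 4422 for morphine replicates 4 to 6, 4423 for morphine replicates 10 to 12, 4424 for saline replicates 4 to 6 and 4425 for saline replicates 10 to 12. The 12 male pups of the same exposure carry the same 4 numbers. What the number stands for is not given, and because each number holds pups of 1 drug only, the drug and a difference between ID numbers cannot be told apart. Nothing in the labels says which pups were littermates, so the p-values below measure the spread between pups, which may be smaller within a litter.

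Morphine acts on the µ-opioid receptor, which is coupled to inhibitory G proteins. Its activation lowers adenylyl cyclase activity and opens inward rectifying potassium channels, so neurons that carry the receptor fire less. Repeated dosing is followed by tolerance, and when the drug is cleared the adapted neurons become overactive, which is the basis of withdrawal. The second postnatal week is a time when synapses of the mouse brain multiply and oligodendrocytes wrap axons in myelin. Opioid receptors are present on neurons and glia during that time.

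The female morphine libraries held from 4407544 to 17687531 counts (median 14343088.5) and the female saline libraries from 8174598 to 20369501 (median 15794549). Values below are CPM, the share of a library's counts scaled to a common total by TMM, and log2FC is the log2 fold change of morphine minus saline fitted by edgeR with its standard error (SE). The code F matched the sex genes: *Xist*, the RNA that silences an X chromosome, lay between 197 and 317 CPM in the 12 libraries, and the Y-linked *Ddx3y* was at 0.124 CPM or less. The 16 markers of hindbrain and spinal cord summed to 2.12 CPM at most, so none entered the test.

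Several libraries stood apart from the rest of their group. Morphine replicate 4 was the shallowest library, and *CT010467.1*, a gene annotated as ribosomal RNA, took 3.82% of its counts. That share was 1.19% in morphine replicate 5, 0.439% in morphine replicate 10 and between 0.151% and 0.264% in the other 9 libraries. Replicate 10 of the morphine group contained transcripts of the olfactory epithelium that no other library held at such a level, such as *Cyp2a5*, a nasal cytochrome, at 111 CPM against 0.711 CPM at most in saline, and *Omp*, the marker of mature olfactory sensory neurons, at 30.3 CPM. It also held *Col1a1*, a collagen of bone and connective tissue, at 533 CPM against 48.1 to 82.5 CPM in saline.

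Markers of 2 neighbouring brain regions also differed between libraries. All 8 markers of cerebellum had a log2FC above 0 (median 1.5), and 7 of them had an unadjusted p under 0.05. The highest levels were in morphine replicates 5 and 12, at a mean log2 CPM of 4.12 and 3.60, while the other morphine libraries (1.85 to 2.35) fell within the saline range of 1.07 to 2.76. All 6 markers of olfactory bulb had a log2FC below 0 (median -0.48). Morphine replicates 11 and 12 both had a level of 2.09, and the other morphine libraries (3.23 to 3.66) overlapped with saline (3.42 to 3.69). In males the same medians were -0.46 for cerebellum and 0.30 for olfactory bulb. With both levels as covariates, a fit added after the data had been seen, edgeR called 1 gene (*Cyp2a5*), and the medians of the immediate early, immature neuron and myelin lists described below were -0.18, 0.15 and -0.14.

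**Figure D1:**
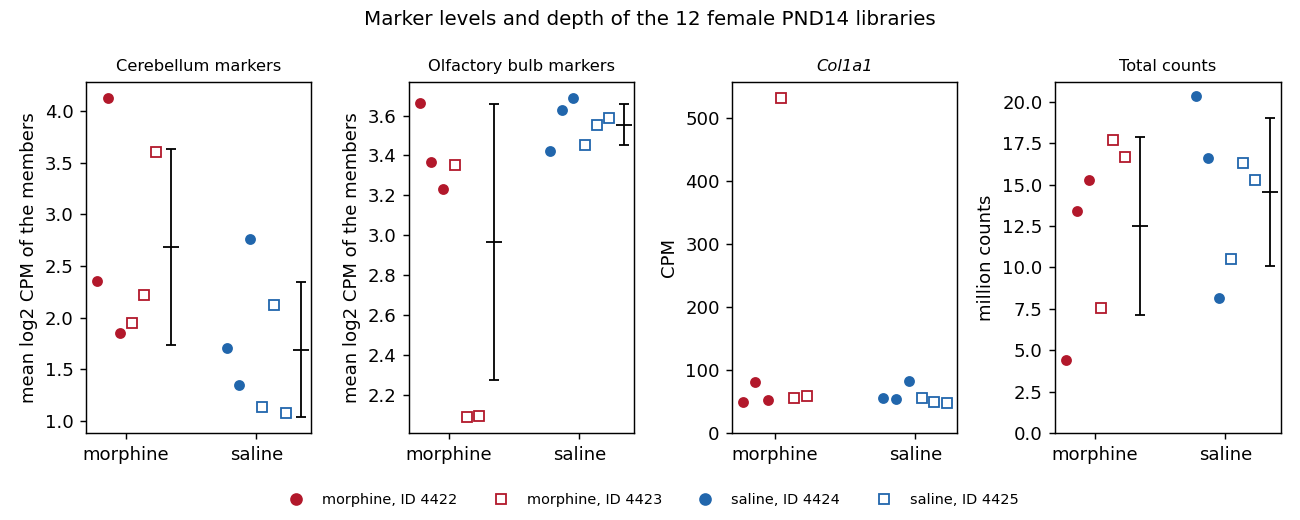
Each point is 1 of the 12 female PND14 libraries, coloured by drug and shaped by ID number, with the mean log2 CPM of the cerebellum and olfactory bulb markers, the CPM of *Col1a1* and the total counts on the vertical axes. Bars are mean ± SD over 6 libraries where drawn. Morphine replicates 5 and 12 are high in cerebellum markers, replicates 11 and 12 are low in olfactory bulb markers, replicate 10 alone reaches 533 CPM of *Col1a1*, and replicate 4 has the fewest counts.

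No gene passed the test in females. Of 19636 genes, edgeR found 0 at an adjusted p under 0.05 (0% of those tested), and the smallest adjusted p was 0.238. At an unadjusted p under 0.05 there were 2054 genes (10.5%). Of these, 971 were higher with morphine (4.94% of all genes tested) and 1083 were lower (5.52%). Counts of list members at that level, given below, are to be read beside these shares. Fitted differences were small, with a median log2FC of 0.0058, a median SE of 0.086 and 97.5% of genes within 0.5 of 0. Without morphine replicate 4 the count was again 0, with 1737 genes at an unadjusted p under 0.05 and a smallest adjusted p of 0.367. DESeq2 called 16 genes (0.0815%) with all libraries, 7 higher and 9 lower, and 0 without replicate 4, where 1561 genes had an unadjusted p under 0.05. Leaving out morphine replicate 6 gave 13 calls by edgeR, and leaving out any other female library gave 0. Every morphine library lay above every saline library for 34 genes (0.173%) and below for 48 genes (0.244%).

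The genes with the smallest p that were lower in morphine females included regulators of signalling in active neurons. *Dusp6*, a phosphatase that switches off ERK kinase, had a lowest, median and highest value of 48.0, 61.1 and 63.7 CPM with morphine and 62.4, 72.0 and 81.1 CPM with saline. Of the 6 morphine libraries 4 lay below every saline library. The log2FC was -0.28 (SE 0.060, unadjusted p = 6.69e-05) and remained -0.24 without replicate 4. *Homer1*, a scaffold of the postsynaptic density with a short form that is induced by activity, ranged from 126 to 162 CPM (median 137) with morphine and from 157 to 189 CPM (median 163) with saline. Its log2FC was -0.26 (SE 0.060), and 5 morphine libraries were below all saline libraries. *Bhlhe40*, a repressor in the circadian clock that also responds to neuronal activity, was at 38 to 51.3 CPM against 48.4 to 59.2 CPM, a log2FC of -0.28 (SE 0.063). DESeq2 gave each of the 3 genes an adjusted p of 0.0411, while the adjusted p of edgeR was 0.238 for each.

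For 2 of the 9 genes that DESeq2 called lower, the female libraries did not overlap. *Rnf141*, which encodes a RING finger protein, was at 80.3 to 94.5 CPM with morphine and at 95.5 to 100.4 CPM with saline, so that the groups were separated by a narrow gap (log2FC -0.16, SE 0.038). *Arpp19*, which encodes an inhibitor of the phosphatase PP2A, was at 117 to 139 CPM against 142 to 162 CPM (log2FC -0.20, SE 0.048). The other 4 genes of this group were lower in 5 of 6 morphine libraries than in any saline library: *Secisbp2l* (log2FC -0.23), *Sipa1l1*, a regulator of Rap GTPases at the synapse (-0.22), *Zfp365* (-0.29) and the kinase gene *Lrrk2* (-0.29). *Zfp365* shows how much 1 library weighed: 5 morphine libraries lay between 254 and 275 CPM, and replicate 6 was at 339 CPM, inside the saline range of 315 to 353 CPM. Among the 10 protein-coding genes with the smallest p, *C2cd3* (-0.27), the DNA repair gene *Xpc* (-0.28) and the transcriptional repressor gene *Bcl6* (-0.25) were also lower.

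The higher genes with the smallest p included regulators of neuronal form and of neuronal fate. *Rac3*, a small GTPase of growing neurites, was at 51.5, 64.4 and 69.3 CPM (lowest, median, highest) with morphine and at 42.5, 51.7 and 55.4 CPM with saline. Its log2FC was 0.30 (SE 0.066), 5 morphine libraries exceeded all saline libraries, and the value was also 0.30 without replicate 4. *Sox12*, a SoxC transcription factor of developing neurons, did not overlap between the groups, at 57.0 to 78.3 CPM against 49.5 to 56.9 CPM (log2FC 0.27, SE 0.063). *Arxes1* did not overlap either (42.5 to 49.5 against 33.8 to 41.3 CPM, log2FC 0.27), and *Samd14* was higher in 5 libraries (123 to 155 against 119 to 125 CPM, log2FC 0.26).

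The other higher genes that DESeq2 called were of unequal kinds. *Insm1*, a zinc finger gene of neuronal progenitors and newborn neurons, was at 10.6 to 20.2 CPM with morphine and 6.99 to 11.4 CPM with saline (log2FC 0.57, SE 0.14). *Nr2f1*, a nuclear receptor that patterns the cortex, was at 106 to 150 CPM against 92.4 to 106 CPM (log2FC 0.28). *Gm24270*, annotated as a microRNA, was at 162 CPM in morphine replicate 4 and had a median of 9.82 CPM with morphine and 4.52 CPM with saline, and its log2FC went from 2.69 to 1.24 without that library. *Cyp2a5* (log2FC 5.26), which replicate 10 alone carries, *Cnpy1* (2.26) and *Uncx* (1.30) were also among the 10 higher protein-coding genes. With 1 female library left out, *Cnpy1* ran from 1.79 to 2.63 and *Uncx* from 1.07 to 1.42. Both were lowest without morphine replicate 5, the library with the highest level of cerebellum markers. The part of region content in these values was not tested. *Plcd1*, a phospholipase C gene, did not overlap between female groups (9.60 to 11.6 against 8.25 to 9.21 CPM, log2FC 0.28), while its male log2FC was -0.06.

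Immediate early genes, which neurons switch on within minutes of strong activity, were mostly lower in morphine females. Of 19 members tested, 18 had a log2FC below 0, 11 of these had an unadjusted p under 0.05 and none was higher at that level. The median log2FC was -0.26 against 0.0058 over all genes, and -0.23 without replicate 4, where 12 members had an unadjusted p under 0.05. By edgeR none passed after adjustment over all genes, and DESeq2 called *Dusp6* and *Homer1*, as given above. In males the median of the list was 0.025, with 7 members below 0. For the difference between the sexes 11 of the 19 members had an unadjusted p under 0.05, compared with 3.44% of all genes. The mean log2 CPM of the list was 5.57 in female saline of 4425 and 5.17 in female saline of 4424. In male saline it was 4.97 in 4424 and 5.09 in 4425, and in male morphine 5.06 in 4422 and 5.10 in 4423.

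The separate libraries show that the saline side of this difference was uneven. *Arc*, which encodes a synaptic protein that removes AMPA receptors, was nearly constant with morphine, at 66.5 to 74.5 CPM (median 68.6). In saline it was at 77.6, 73.5 and 61.5 CPM in the 3 females of ID number 4424 and at 136, 101 and 109 CPM in those of 4425. The morphine libraries therefore overlapped with the former and lay below all of the latter (log2FC -0.42, SE 0.12). *Arc* was also the only gene whose level differed between the 2 ID numbers within female saline at an adjusted p under 0.05 (1 of 19636 genes, 0.00509%; log2FC of 4424 minus 4425 -0.69, edgeR adjusted p = 0.0233).

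The other early genes given here, some of them named after their values were seen, also had overlapping groups. *Fos*, the AP-1 subunit used to map active neurons, was at 15.2 to 24.1 CPM with morphine and 19.7 to 37.2 CPM with saline (log2FC -0.34, SE 0.13). *Egr1* was at 158 to 212 against 174 to 276 CPM (log2FC -0.26), and *Egr3*, a related zinc finger factor, was at 79.8 to 111 against 93.2 to 134 CPM (-0.26). *Npas4*, which responds to calcium entry in neurons, was the only member above 0, at 13 to 17.8 against 8.71 to 27.5 CPM (0.12, SE 0.19). Over the list, the mean log2 CPM was 5.05 to 5.22 in the 6 morphine libraries, 5.05 to 5.28 in saline of 4424 and 5.44 to 5.74 in saline of 4425. Without the pups of 4425 the median log2FC of the list was -0.037, and without those of 4424 it was -0.38.

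**Figure D2:**
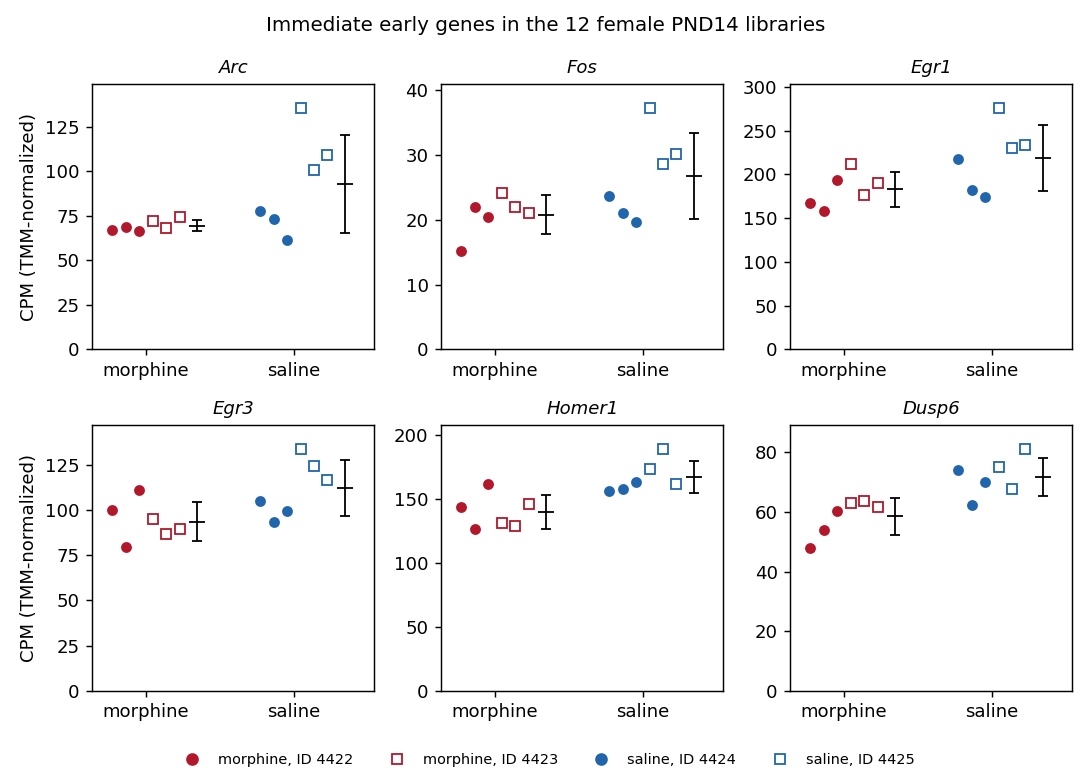
CPM of 6 immediate early genes in each of the 12 female PND14 libraries, by drug (horizontal axis) and ID number (marker), with mean ± SD over 6 libraries. For *Arc* the saline libraries of ID number 4425 (101 to 136 CPM) stand above those of 4424 (61.5 to 77.6 CPM), which overlap with the morphine libraries (66.5 to 74.5 CPM), and *Dusp6* and *Homer1* have lower morphine values with little overlap.

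Genes of immature neurons and growth cones were mostly higher with morphine, with the highest levels in 2 libraries. Of 16 members, 15 had a log2FC above 0, 9 had an unadjusted p under 0.05, all higher, and the median was 0.13 (0.10 without replicate 4, with 6 at that level). The mean log2 CPM of the list was 8.64 in morphine replicate 4 and 8.53 in replicate 10, both above the saline range of 8.15 to 8.38, while the other 4 morphine libraries (8.23 to 8.37) lay inside it. Replicates 4 and 10 are the libraries with much ribosomal RNA and with olfactory epithelium transcripts, and without both the median was 0.080. Across 26 alternative fits it lay between that value and 0.18. *Gap43*, a phosphoprotein of the growth cone, was at 441, 499 and 575 CPM (lowest, median, highest) with morphine and at 414, 431 and 485 CPM with saline (log2FC 0.21, SE 0.054). *Tubb2b*, a β-tubulin of migrating neurons, was at 332 to 450 CPM against 336 to 380 CPM (0.18, SE 0.063). *Stmn2*, a regulator of microtubules in growing axons, was at 749 to 896 CPM against 710 to 810 CPM (0.13, SE 0.047). Each gene had overlapping groups, with 4, 5 and 3 morphine libraries above all saline libraries. Markers of mature neurons in general had a median of 0.013 with none of 8 at an unadjusted p under 0.05. In males all 16 genes of the immature list were above 0 and 13 had an unadjusted p under 0.05 (median 0.22).

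All 18 myelin genes were lower with morphine in females, with a median nearer to 0 than in males. That median log2FC was -0.21 (-0.24 without replicate 4), and 7 members had an unadjusted p under 0.05. *Ermn*, which encodes a cytoskeletal protein of myelinating oligodendrocytes, was at 10.4, 13.9 and 16.2 CPM with morphine and 15.4, 17.4 and 21.6 CPM with saline (log2FC -0.42, SE 0.14). *Mal*, a lipid raft protein of compact myelin, was at 48.5 to 73.9 CPM against 66.6 to 91.4 CPM (-0.39, SE 0.15). *Mobp* (-0.32), a structural protein of myelin, and *Ugt8a* (-0.27), the enzyme that makes galactocerebroside, were lower in most libraries. *Mag*, an adhesion protein of the myelin sheath next to the axon, was at 132, 167 and 186 CPM with morphine and 170, 193 and 208 CPM with saline (-0.23, SE 0.11, unadjusted p = 0.0415), with 3 morphine libraries below all saline libraries. *Myrf*, the transcription factor that starts the myelin programme, was at 45.0 to 54.4 CPM against 50.0 to 58.8 CPM (-0.14), and *Mbp*, the basic protein of compact myelin, was at 1474 to 2009 CPM against 1703 to 2420 CPM (-0.16).

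In males the same list had a median of -0.47, 17 of 18 members had an unadjusted p under 0.05 and 9 passed after adjustment, among them *Myrf* (log2FC -0.46, edgeR adjusted p = 0.0124) and *Mag* (-0.58, adjusted p = 0.0191). The sex difference had an unadjusted p under 0.05 for 5 of the 18 and passed the adjustment for none of them. As with the early genes, the ID numbers were uneven: the female morphine libraries of 4423 had a mean log2 CPM of 5.93 to 6.08 over the list and those of 4422 had 6.27 to 6.36, close to the saline libraries (6.22 to 6.64). Without the pups of 4423 the median was -0.055. The 11 genes of oligodendrocyte precursors had a median of -0.004, and *Gpr17*, a receptor of cells about to make myelin, was the only member with an unadjusted p under 0.05 (110 to 133 against 130 to 142 CPM, log2FC -0.18). In bulk tissue, fewer cells of a type and less RNA per cell cannot be told apart.

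**Figure D3:**
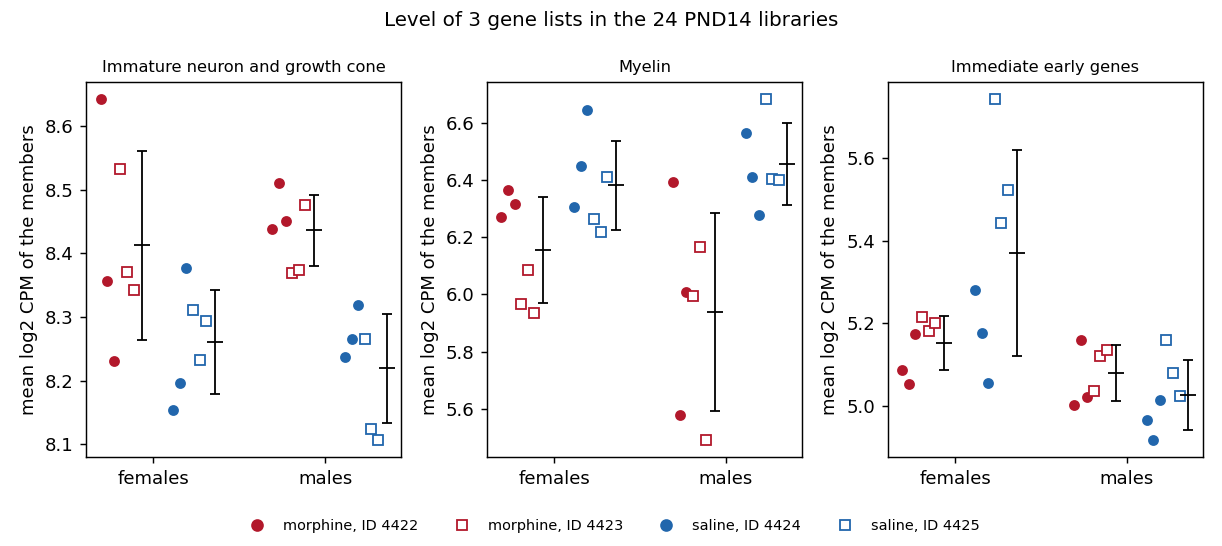
Mean log2 CPM of the members of 3 gene lists in each of the 24 PND14 libraries, females on the left and males on the right of each panel, by drug (colour) and ID number (marker), with mean ± SD over 6 libraries. Female myelin levels are lowest in morphine of ID number 4423 (5.93 to 6.08), and female immediate early genes are highest in saline of 4425 (5.44 to 5.74).

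Genes of the opioid system itself differed little. Of the 8 genes for receptors and peptide precursors, 4 were higher and 4 lower, and 2 had an unadjusted p under 0.05. *Oprm1*, the µ receptor that morphine binds, was at 56.3, 62.5 and 71.7 CPM with morphine and 66.8, 71.9 and 77.5 CPM with saline. Its log2FC was -0.17 (SE 0.052, unadjusted p = 0.00359; -0.14 without replicate 4), and 4 morphine libraries lay below all saline libraries. *Oprd1*, the δ receptor, was at 9.42 to 13.2 CPM against 11 to 15.6 CPM (log2FC -0.24, SE 0.11). *Oprl1*, the nociceptin receptor, was at 56.5 to 71.5 CPM against 58.3 to 63.8 CPM (0.10), with 4 morphine libraries above all saline libraries and 1 below them. *Pnoc*, which encodes nociceptin, overlapped widely with saline (0.13).

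Downstream of the receptors, 13 of 30 genes of G protein, cyclase, kinase and potassium channel signalling were above 0 and 17 below, with a median of -0.045. The 4 with an unadjusted p under 0.05 were all lower, while 5.52% of all genes tested were lower at that level. *Creb1*, the transcription factor activated by cyclic AMP, did not overlap between the groups, at 43.4 to 60.2 CPM with morphine and 61.2 to 65.3 CPM with saline (log2FC -0.20, SE 0.061). *Rgs4*, which speeds the shut-off of inhibitory G proteins (-0.17), *Adcy2*, an adenylyl cyclase (-0.12), and *Prkacb*, a catalytic subunit of protein kinase A (-0.08), overlapped in part. For this list the direction of the median depended on the fit: it ranged from -0.054 to 0.00029 across the alternatives.

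Genes of GABA transmission, the main inhibitory system, were lower for 16 of 22 members, 4 of them at an unadjusted p under 0.05 (median -0.050). Without replicate 4 the median was -0.054 and 2 members were lower at that level. *Gad1*, the GABA synthesizing enzyme of the cell body, did not overlap, at 206.3 to 235.9 CPM with morphine and 236.2 to 257.3 CPM with saline (log2FC -0.13, SE 0.047). *Gabra4*, a subunit of extrasynaptic GABA-A receptors, was at 100.1 to 113 CPM against 112 to 124 CPM (-0.15, SE 0.046). *Gad2*, the second form of the enzyme, had a log2FC of -0.04 (233 to 277 against 243 to 269 CPM). Glutamate receptors were above 0 for 9 of 22 members (median -0.023), and axon guidance genes for 11 of 38 (median -0.046). In each list 4 members had an unadjusted p under 0.05, a level reached by 10.5% of all genes tested. Of the glutamate receptor genes at that level 2 were higher and 2 lower, and the 4 axon guidance genes were all lower. Without replicate 4 the axon guidance list had 2 at that level, 1 in each direction. The median of the glutamate receptors was 0.00054 without saline replicate 11. *Sema4d*, a semaphorin made by oligodendrocytes, was 1 of the 4 axon guidance genes, at 116 to 135 CPM against 131 to 142 CPM (-0.13).

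Microglial genes were lower for 7 of 10 members, 4 of them at an unadjusted p under 0.05 (2 without replicate 4), such as *Cx3cr1*, the fractalkine receptor (83.3 to 108 against 107 to 123 CPM, log2FC -0.18, SE 0.051). Astrocyte markers had a median of -0.068 with 1 of 10 at that level, and brain endothelium a median of -0.086 with 3 of 10, which moved to -0.038 without replicate 4. Cell cycle genes were above 0 for 12 of 15 members (median 0.089), with 2 at an unadjusted p under 0.05. This median was 0.020 without morphine replicate 11 or saline replicate 11, 0.0016 without the pups of ID number 4425, -0.041 without those of 4423 and -0.0084 with the region covariates. Chaperones of the endoplasmic reticulum were below 0 for 15 of 19 (median -0.066), including *Hspa5*, the main chaperone of that compartment (211 to 264 against 248 to 297 CPM, -0.18). *Nr3c1*, the glucocorticoid receptor gene, was at 87.1 to 107 CPM against 102 to 117 CPM (-0.16, SE 0.048), and *Zbtb16*, a gene that the receptor induces, was at 17.6 to 25.1 CPM against 24 to 28.2 CPM (-0.28, SE 0.083). The 15 genes of the glucocorticoid list had a median of -0.028, with 4 above 0 and 11 below. At an unadjusted p under 0.05, 1 was higher and 4 were lower, and without replicate 4 these counts were 0 and 5. Lists for cholesterol synthesis (median -0.007), cortical layers (-0.027), interneurons (0.017), striatum (-0.025), circadian clock (-0.024) and hypoxia (-0.004) were close to the median of all genes, although the circadian median was -0.066 without replicate 4. Choroid plexus markers had a median of -0.16, with 3 of 10 lower at an unadjusted p under 0.05. Without replicate 4 only 1 was, and the median was -0.044 without saline replicate 4 and -0.015 without ID number 4422. Blood genes had no consistent direction, with a median of -0.14 that ran from -0.54 without morphine replicate 6 to 0.44 without saline replicate 12. The medians of the mitochondrially encoded genes and of the synaptic vesicle and postsynaptic genes changed sign without replicate 4, from 0.069 to -0.015 and from 0.003 to -0.047.

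**Figure D4:**
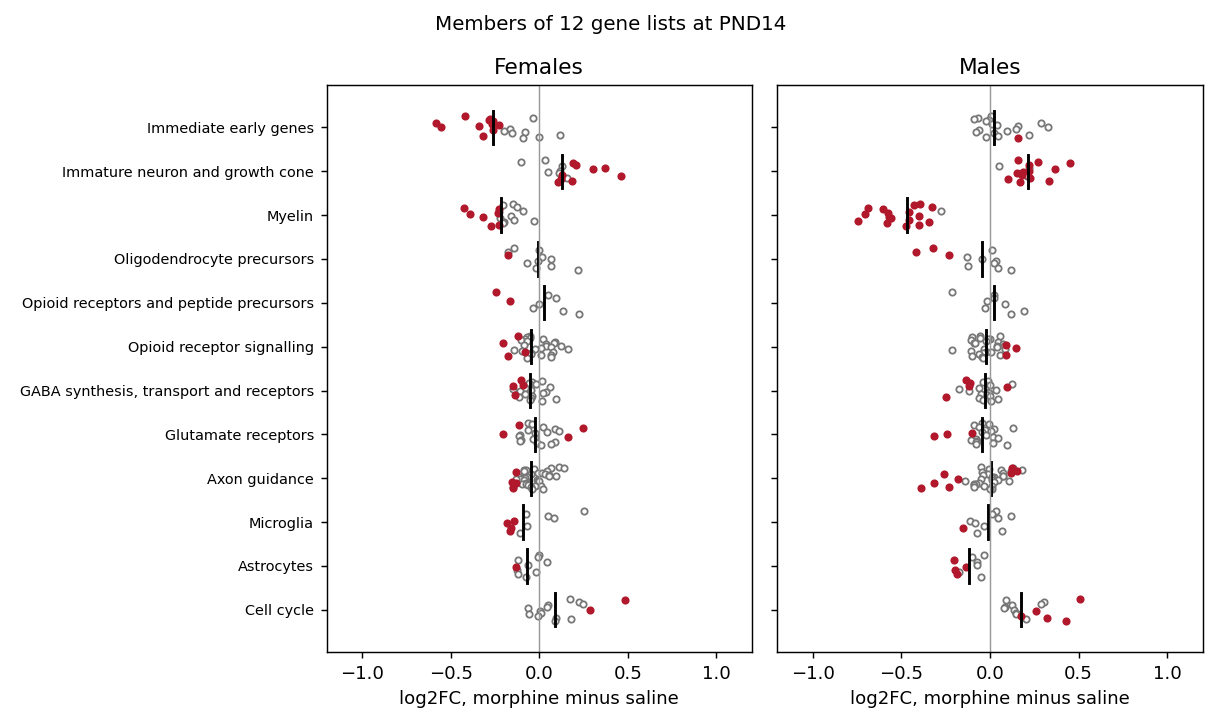
Fitted log2FC of morphine minus saline for each tested member of 12 gene lists, in females (left) and males (right). Filled points have an unadjusted p under 0.05, open points do not, and the black line is the median of the list. In females the immediate early genes (median -0.26) and myelin genes (-0.21) lie to the left and the immature neuron genes (0.13) to the right, and in males the myelin median is -0.47 and that of the immediate early genes is 0.025.

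Female and male responses were set side by side. Pups of both sexes carried the same ID numbers, so a difference between ID numbers could appear in both. Agreement between the sexes is therefore no separate support for a drug effect. Males had 55 genes at an adjusted p under 0.05 (0.28% of those tested, 16 higher and 39 lower) and 1825 at an unadjusted p under 0.05 (9.29%). By edgeR this male count of 55 was 54 without the pups of 4422, 7 without those of 4423 and 0 without those of 4424. It was also 0 without those of 4425, and DESeq2 called 180 with all libraries. Of the 55, 54 had the same sign in females and 27 also had an unadjusted p under 0.05 there. Of the 2054 female genes, 1625 (79.1%) had the same sign in males, against 63.9% of all genes tested, and 444 also had an unadjusted p under 0.05 in that direction, while 10 had one in the opposite direction. The sex difference itself passed for no gene by edgeR, with 676 genes (3.44%) at an unadjusted p under 0.05, nor by DESeq2 with all libraries, with 599. Without morphine replicate 4, DESeq2 called 1 gene for this difference and edgeR called 0.

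The 5 genes with the smallest p for the sex difference had opposite signs in females and males. *Dlx2*, a homeobox factor of inhibitory neuron precursors, was lower in females (8.60 to 14.6 against 13.2 to 16.4 CPM, log2FC -0.40) and had a male log2FC of 0.33 (unadjusted p of the difference = 6.14e-05). *Slco5a1*, an organic anion transporter gene, did not overlap in females, at 7.88 to 8.71 CPM against 9.66 to 13.1 CPM (-0.39), and had a male value of 0.28. *Epb41*, a protein of the membrane skeleton, was at 0.22 in females and -0.14 in males. *Nhlh1* (1.51 and -0.68) and *Rnd3* (-0.12 and 0.17) completed the list. The region markers given above also had medians of opposite sign. In females and males these were 1.5 and -0.46 for cerebellum and -0.48 and 0.30 for olfactory bulb. With 1 female library left out, *Nhlh1* ran from 1.13 (without morphine replicate 5) to 1.73. *Dlx2* ran from -0.43 to -0.31 (without morphine replicate 12). The part of region content in these sex differences was not tested.

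With the sexes joined, as the mean of the female and male log2FC, 332 genes passed (1.69% of those tested), of which 123 rose and 209 fell, and 293 were protein-coding. Without morphine replicate 4 there were 271, and DESeq2 called 656. Leaving out any 1 female library gave 142 (without saline replicate 4) to 638 calls (without morphine replicate 6). Without the pups of ID number 4424 the joined count was 7, and without those of 4425 it was 0 by edgeR, with 1980 genes at an unadjusted p under 0.05. An unadjusted p under 0.05 was reached in females by 267 of the 332 and in males by 310, with 245 reaching it in both. The 332 genes were chosen by the mean of these same female and male values. The counts in each sex therefore follow in part from that choice and are no separate support. *Rac3* rose with the smallest p of the protein-coding genes (joined log2FC 0.33, edgeR adjusted p = 0.00155), together with *Arxes1* (0.28), *Samd14* (0.28), *Sox12* (0.27), *Tubb2b* (0.26), *Gap43* (0.21) and *Nnat* (0.25), the last an imprinted gene of developing neurons. For *Nnat* the female values were 138 to 175 CPM with morphine and 125 to 149 CPM with saline. Of the immature neuron list 6 members rose in all.

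Among the genes that fell, *Gsn*, an actin severing protein of oligodendrocytes, had a joined log2FC of -0.40 (adjusted p = 0.0026) and female values of 69.1 to 91.2 CPM against 88.3 to 119 CPM. *Hr*, a corepressor that thyroid hormone induces, fell by 0.22 (female values 55.6 to 68.5 against 63.5 to 73.1 CPM). *Tppp*, a tubulin polymerizing protein of oligodendrocytes, was in females at 310 to 396 CPM with morphine and 391 to 404 CPM with saline and fell by 0.24. *Ano3* (-0.27), *Gpr17* (-0.21), *Sema4d* (-0.22), *Lrrk2* (-0.27), *Zfp365* (-0.28) and *Secisbp2l* (-0.22) fell too. Of the myelin list 12 members fell, with *Ermn* at -0.56, *Mal* at -0.55 and *Mag* at -0.41 (edgeR adjusted p = 0.0106). *Homer1* was the only early gene that fell (joined log2FC -0.16, adjusted p = 0.0476), and *Cobl*, an actin nucleator gene, fell by 0.22 (female log2FC -0.18).

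A separate set of 13 joined calls had a log2FC above 1. They were *CT010467.1*, *Cdk8*, *Lars2*, *Gm24187*, *Gm24270*, *Gm23935*, *Jarid2*, *Filip1l*, *Zc3h7a*, *Gphn*, *Cmss1*, *Gm19951* and *D130009I18Rik*, named after their values were seen. In females *Cmss1* was at 1345 CPM in morphine replicate 4, 344 CPM in replicate 5, 215 CPM in replicate 10 and 70.1 to 109 CPM in saline, the same order of libraries as the ribosomal RNA gene. Whether these reads belong to the genes named or to ribosomal RNA was not tested.

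**Figure D5:**
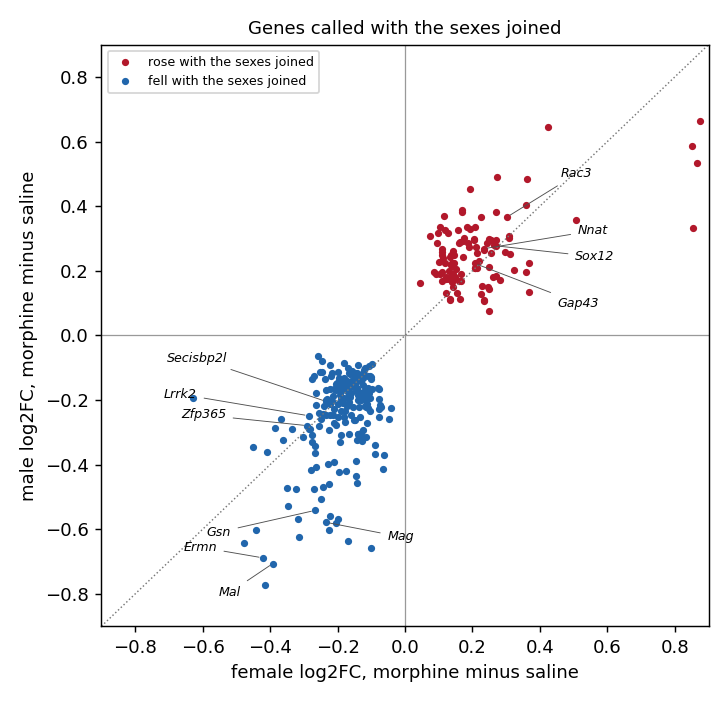
Female log2FC (horizontal axis) against male log2FC (vertical axis) of morphine minus saline for the 332 genes called with the sexes joined, red where they rose and blue where they fell. The dotted line marks equal values, and 14 genes lie outside the axes. *Mag*, *Mal* and *Ermn* lie below the dotted line, with a larger negative value in males, and *Rac3*, *Sox12* and *Gap43* lie near it.

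The 9 genes that the study itself names for morphine exposure were checked in these females. *Mag*, *Myrf*, *Mbp* and *Cobl* are given above. *Tcf7l2*, a Wnt effector of oligodendrocyte differentiation, was at 54.4 to 87.1 CPM with morphine and 49.7 to 73.4 CPM with saline (log2FC 0.22, SE 0.13). *Sox2*, a factor of neural progenitors (-0.015), *Parm1* (-0.06), *Ust*, a sulfotransferase gene (-0.04), and *Gad2* had overlapping groups and unadjusted p-values between 0.232 and 0.788. In males *Ust* fell by 0.22 (edgeR adjusted p = 0.0366).

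Differences between the ID numbers of 1 drug were set beside the drug contrast. Within female morphine, 0 genes differed between 4422 and 4423 at an edgeR adjusted p under 0.05 (0% of those tested) and 1439 had an unadjusted p under 0.05, or 983 without replicate 4. Within female saline 477 genes had one. The drug contrast, with 6 pups a side in place of 3, had 2054. For 8213 genes (41.8%) both morphine ID means lay on the same side of both saline ID means. Some genes would have this order of means without any drug effect. It held for 1956 of the 2054, but those genes were chosen by the drug difference in the same libraries. The order of the means was thus largely set by that choice and is no separate support.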

How the data were processed

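RNA from the right hemisphere of single pups was sequenced as paired-end libraries, and the 24 PND14 libraries were used here, 6 for each sex and drug. According to the methods and the submitters' processing notes, reads were trimmed with Trim Galore 0.6.6, aligned with HISAT2 2.2.1 to mm10, filtered of duplicate reads by Picard, and assigned to GENCODE M25 genes with featureCounts 2.0.1. The strand setting of the counting is not given in the sources used here. Reads of overlapping and antisense genes therefore cannot be told apart. The counts deposited by the authors are raw counts per gene and library, and every row named a gene and every column a sample. Result tables of DESeq2 from the authors, holding mean normalized counts, log2 fold changes, standard errors, test statistics and p-values, were not used.

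Genes were kept by filterByExpr of edgeR (minimum count 10, minimum total count 15), scaled by TMM and tested with the quasi-likelihood F test in 1 fit of the 4 groups of sex and drug. Adjusted p-values are Benjamini-Hochberg over all genes tested, at a threshold of 0.05. Tools were R 4.3.3, edgeR 4.0.16, limma 3.58.1, DESeq2 1.42.0, Python 3.11.15 and matplotlib 3.10.9. List levels are means of log2 CPM with a prior count of 2. Symbols from GENCODE M21 matched 55141 of 55401 gene IDs. The steps were tested on simulated data. No pair of libraries of a group agreed within counting noise (lowest chi-square per gene 2.62).

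The comparison, gene lists and named genes were chosen with earlier results of these data known. Named were 9 genes from the study, and the 10 higher and 10 lower protein-coding genes with the smallest p in females. Up to 4 members of each list and every gene called by either tool were added. So were the 5 genes with the smallest p for the sex difference. With the sexes joined, the 10 protein-coding genes with the smallest p in each direction completed the rule. Of the last 20, and of the list members, only part is printed. *Fos*, *Egr1*, *Npas4*, *Omp*, *CT010467.1*, *Cmss1* and the other joined calls above a log2FC of 1 fall outside this rule. Alternatives were DESeq2's size factors, no filter, DESeq2, only the female libraries, the replicate block, leaving out each library or ID number, the ID number as a random effect or sample weights in limma, and counts summed per ID number. The fits without morphine replicates 4 and 10 together and with marker levels as covariates were added after seeing the data.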

Additional observations from a re-analysis of the deposited data

Results flagged for a closer look

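In groups of 6 libraries, chance alone would set about 1 in 20 groups apart by the gap test used here (the gap to the nearest library against the range of the group), and 21 of 244 groups of named genes and lists were. In morphine replicate 10 these were *Cyp2a5* (111 CPM), *Col1a1* (533 CPM), *Col1a2* (387 CPM) and the level of mural, meningeal and collagen genes (5.99 mean log2 CPM). In morphine replicate 4, the shallowest library, *Lrrk2* (16.4 CPM), *Fos* (15.2 CPM), *Serp1*, a gene of the endoplasmic reticulum (54.0 CPM), and brain endothelium markers (4.99) were the lowest of the group. *Zfp365* was highest in morphine replicate 6 (339 CPM) and thalamus markers in morphine replicate 12 (4.65).

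In saline replicate 6, the shallowest saline library, *Ugt8a* (159 CPM), *Col1a1* (82.5 CPM), *Col1a2* (89.9 CPM), astrocyte markers (7.75) and mitochondrially encoded genes (8.09) were the highest, and striatum markers (5.32) were the lowest. The lowest *Rnf141* value was in saline replicate 10 (95.5 CPM), and the lowest *Rnd3* value was in saline replicate 4 (31.4 CPM). *Ano3* was highest in saline replicate 11 (63.3 CPM). Saline replicate 12 had the lowest level of glutamate receptors (6.73) and the highest level of chaperones of the endoplasmic reticulum (6.24). The part of depth and of dissection in these values was not tested.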

How the results depend on the processing

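The count of 0 female genes at an adjusted p under 0.05 became 16 with DESeq2, 4 without ID number 4422, 17 without 4423, 1 without 4424 and 1 with the marker levels as covariates, and ranged from 0 to 13 when 1 female library was left out (13 without morphine replicate 6). The 2054 genes at an unadjusted p under 0.05 became 3084 with no filter on low counts, 1368 without 4424 and 1188 without 4425. The 332 joined calls became 656 with DESeq2, 97 without 4423, 7 without 4424 and 0 without 4425 (1980 unadjusted). They became 644 with the ID number as a random effect in limma, where the fitted correlation within ID numbers was -0.022. That fit therefore did not widen the errors for likeness of pups within an ID number. The joined count was 549 with sample weights, 122 with counts summed per ID number, 148 without morphine replicates 4 and 10, and 67 with the covariates. Leaving out 1 female library gave 142 to 638, with 172 without morphine replicate 5, 152 without morphine replicate 11, 207 without saline replicate 5, 196 and 152 without saline replicates 10 and 11 and 502 without saline replicate 12. The cause of these changes was not tested, and the fits without a library or an ID number also hold fewer libraries.

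The replicate block gave 0 female and 98 joined calls. Its numbers did not pair the libraries: correlations of same-numbered libraries ran from -0.203 to 0.082, none of 6 was above 0.1, and 1 of 6 libraries correlated best with its own number.

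Over 86 genes in the text, 2195 values kept their direction and side of the threshold, 32 passed it in addition and 8 changed sign. The sign changes were *Mbp* without 4423 (log2FC 0.0061), *Sox2* without 4422 (0.011), without 4425 (0.00076), without morphine replicates 4 and 10 (0.016) and with 1 library left out (-0.043 to 0.0045, above 0 without saline replicate 4), *Npas4* without 4423 (-0.0088) and without 4424 (-0.24), and *Fat2* with the covariates (-0.18). Morphine replicate 4, which is both the shallowest library and the richest in ribosomal RNA, received a limma sample weight of 0.458 against 0.623 for the next lowest female library, and the part of each was not tested.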

Other observations

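Genes outside the lists and the rule on smallest p, named after their values were seen, also had female libraries that did not overlap. *Timeless*, a gene of replication fork protection, was at 6.64 to 9.09 CPM with morphine and 4.85 to 6.39 CPM with saline (log2FC 0.36, SE 0.092), and its male log2FC was 0.04. *Arhgef6*, an exchange factor for Rac GTPases, was at 9.91 to 11.8 CPM against 12.6 to 14 CPM (-0.30, SE 0.078; males -0.04). *Serp1* was at 54.0 to 64.8 CPM against 65.6 to 77.4 CPM (-0.16, SE 0.043), with a male log2FC of 0.0046. Such a gap between all libraries was found for 34 genes upward and 48 downward of the 19636 tested, so these are examples from that set.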
